A study of Mus musculus with 9 samples.

Results

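The transcription factors that set the fate of helper T cells were followed as 9 genes: Tbx21, Gata3, Rora, Foxp3, Bcl6, Maf, Ahr, Runx3 and Prdm1. They were chosen by name for their known roles out of 25160 genes in the table, with earlier results of these data known. Of the 9, 8 had enough counts for testing among 11256 tested genes, and Tbx21 had too few and is given as raw counts. Naive CD4+ T cells sorted from the spleens of C57BL/6 mice were stimulated on plates coated with 1 µg/ml of antibody against CD3e, a chain of the T cell receptor complex, in every group. The same plates carried 19 µg/ml of either isotype control antibody or antibody against CD40L, a membrane protein of activated helper T cells that binds CD40 on antigen-presenting cells. Wild-type cells were kept on isotype antibody or on anti-CD40L, and cells from mice lacking CD40L in T cells, labelled KO in their titles and cre in the genotype field, were kept on isotype antibody. Each of the 3 groups had 3 libraries of bulk RNA. Age of the mice, Cre driver, length of culture and whether libraries came from separate animals: these were not given in the sources used here. The p-values therefore reflect the spread among these libraries alone, and that spread may be technical.

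A naive CD4+ T cell that meets antigen can take several fates, and each fate rests on a regulator that switches on its own program and restrains the others. T-bet (Tbx21) directs the Th1 fate with help from RUNX3, GATA3 directs Th2, the orphan receptor RORα (Rora) takes part in the Th17 fate, FOXP3 maintains regulatory T cells and BCL6 directs follicular helper cells. BLIMP-1 (Prdm1) and BCL6 repress each other, while c-MAF (Maf) and the aryl hydrocarbon receptor (Ahr) tune cytokine genes in several fates.

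Total counts over genes ranged from 5316482 to 15565711 per library, and the lowest total was that of anti-CD40L replicate 3. That library had counts for 11673 genes, against 14290 to 17428 in the others, and lay at 86.96 on the first principal component, against -19.1 to 10.22 for the other 8, so values of regulators that rest on it are given with and without it. Cd40lg, the gene of CD40L, stood at 142 to 189 CPM (counts scaled to 1 common library size) in wild-type isotype libraries, 109 to 163 CPM with anti-CD40L and 136 to 150 CPM among those labelled KO. The values of the libraries labelled KO overlapped those of wild-type isotype (144 ± 7.13 against 161 ± 24.5 CPM). The deleted part was not given in the sources used here. Hence the counts do not check the deletion, and directions drawn from these libraries rest on their label. Markers of CD4+ T cells were present in every library: 9 of 12 listed genes were in the table, with a summed level of 4265 to 4946 CPM. Of the other marker lists, called genes on anti-CD40L were the cytotoxic gene Prf1 among natural killer and innate lymphoid markers and the myeloid genes Fcgr3 and Itgam, all lower (edgeR, BH-adjusted p = 0.0327, 0.0206 and 0.0336). Each of these calls was lost when single libraries were left out, among them isotype replicate 2 and anti-CD40L replicate 1 in every case (edgeR, BH-adjusted p up to 0.0935, 0.095 and 0.152), and DESeq2 did not call Prf1 (BH-adjusted p = 0.0968). The smallest p among dendritic, CD8 and CD4 T cell markers were those of Zbtb46, Cd8b1 and Cd3d, none called (edgeR, BH-adjusted p = 0.269, 0.521 and 0.145), and erythroid markers had too few counts to test.

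In wild-type isotype libraries, the regulators differed widely in level once divided by transcript length. Bcl6 led with 24.3 ± 6.16 CPM per kilobase (mean ± SD, n = 3 here and below), above every value of the other 8 genes. Runx3 at 5.92 ± 1.798, Gata3 at 5.04 ± 1.02 and Foxp3 at 4.80 ± 0.460 CPM per kilobase overlapped and cannot be ranked among themselves. Rora stood at 3.14 ± 0.802 CPM per kilobase, with no overlap with Foxp3, and Maf at 2.36 ± 1.11, overlapping Rora. Rora's place depends on the transcript: 2 of its 3 rows held nearly the same counts (totals of 721.5 and 715), but the second is 10878 bases long against 2591, and with that length Rora stood at 0.747 ± 0.191 CPM per kilobase. Prdm1 at 0.680 ± 0.0722 and Ahr at 0.490 ± 0.115 CPM per kilobase overlapped each other, and Tbx21 was lowest at 0.226 ± 0.132. In bulk RNA, fewer cells with a transcript and less of it per cell cannot be told apart, here and in all that follows.

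**Figure D1:**
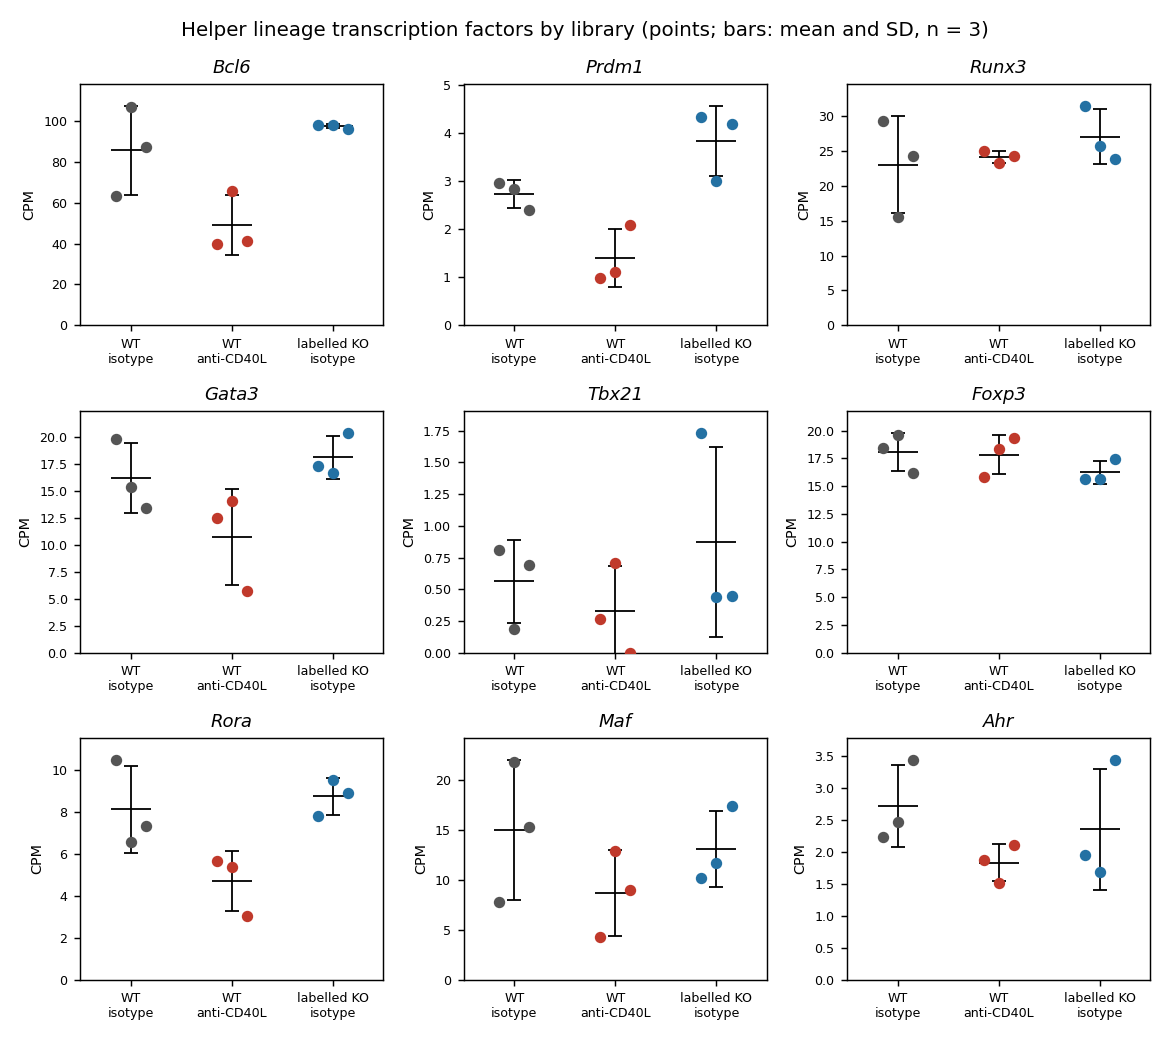
Level of each regulator in CPM (linear axes from 0) in the 9 libraries, with the mean as a horizontal line and the SD as a bar (n = 3 per group). Bcl6, Prdm1, Gata3 and Rora lay lower in anti-CD40L libraries than in those labelled KO with no overlap. Foxp3 and Runx3 overlapped in all groups, and Tbx21 stayed under 2 CPM throughout.

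Bcl6 fell on anti-CD40L. BCL6 is a zinc-finger repressor needed for follicular helper T cells, and its gene lies on chromosome 16, 23965050 to 23988866, minus strand (GRCm38; row NM_001348026). It stood at 63.3, 107 and 87.1 CPM in wild-type isotype replicates 1 to 3, at 39.9, 65.8 and 41.1 CPM on anti-CD40L and at 97.9, 98.1 and 96.0 CPM with the KO label. The anti-CD40L values were below those of the libraries labelled KO without overlap, whereas anti-CD40L replicate 2 slightly exceeded isotype replicate 1. Against wild-type isotype the log2 fold change was -0.80 (SE 0.20; quasi-likelihood test of edgeR, Benjamini-Hochberg (BH) adjusted p = 0.0234), and against the libraries labelled KO it was -0.98 (SE 0.20; edgeR, BH-adjusted p = 0.0085). The libraries labelled KO and wild-type isotype overlapped (log2 fold change 0.19, SE 0.19; edgeR, BH-adjusted p = 0.943). The call against wild-type isotype was lost without isotype replicate 2 or 3 or anti-CD40L replicate 1 or 3 (edgeR, BH-adjusted p = 0.111, 0.0703, 0.0915 and 0.0967, the last with a log2 fold change of -0.69) and with limma-voom quality weights (0.0778), and the log2 fold change ranged from -1.08 to -0.61 over the alternatives, with adjusted p from 1.23e-09 to 0.111. Against the libraries labelled KO the call was lost only without anti-CD40L replicate 3, at -0.87 (edgeR, BH-adjusted p = 0.057, within a range of 1.88e-14 to 0.057).

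B cells also express Bcl6, so markers of B and plasma cells were summed. All 14 listed genes were in the table and none was at 0 in a whole group. The sum was 44.6, 58.7 and 24.7 CPM in wild-type isotype replicates 1 to 3, 19.9, 28.4 and 23.7 CPM on anti-CD40L and 42.9, 16.1 and 21.7 CPM with the KO label, and all groups overlapped. Among the tested markers, Fcer2a, the low-affinity IgE receptor, fell on anti-CD40L (log2 fold change -3.96, SE 0.63; edgeR, BH-adjusted p = 0.00176). Fcer2a was also lower with the KO label, at 0.590 ± 0.272 against 11.7 ± 5.6 CPM in wild-type isotype. Those values did not overlap but were not called (log2 fold change -4.28, SE 0.61; edgeR, BH-adjusted p = 0.109). Between anti-CD40L and the KO label, Fcer2a overlapped (0.32, SE 0.78; edgeR, BH-adjusted p = 0.855). The part of B and plasma cells in the Bcl6 values was not tested.

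RefSeq (GRCm38.p6) gives Bcl6 a pair of start sites, shown here as the 250 bases before each because this regulator was called lower in both comparisons with anti-CD40L. Capitals mark matches, on either strand, to 6 searched motifs: GTAAACA (FOXO), TTCNNNGAA (the STAT site, which BCL6 also recognizes), TGANTCA (AP-1), TGACGTCA (CRE), CACGTG (E-box) and GCGNGGGCG (EGR). By the GENCODE vM21 annotation, the outer window, chr16:23988853-23989102 (minus strand), lies outside the gene. It overlaps the edge of the RefSeq span given above, which ends at 23988866. The inner window, chr16:23981284-23981533 (minus strand), lies within an intron by GENCODE.
Bcl6, outer start: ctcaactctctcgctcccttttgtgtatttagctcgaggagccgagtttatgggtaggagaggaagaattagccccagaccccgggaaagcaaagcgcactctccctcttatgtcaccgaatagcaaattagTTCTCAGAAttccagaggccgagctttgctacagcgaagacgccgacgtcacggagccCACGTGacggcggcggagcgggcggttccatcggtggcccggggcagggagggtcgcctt
Bcl6, inner start: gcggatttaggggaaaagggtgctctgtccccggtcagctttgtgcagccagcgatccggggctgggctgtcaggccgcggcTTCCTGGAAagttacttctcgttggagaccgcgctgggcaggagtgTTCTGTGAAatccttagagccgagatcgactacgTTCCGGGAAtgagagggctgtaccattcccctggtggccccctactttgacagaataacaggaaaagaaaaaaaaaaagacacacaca
The outer window has a STAT-type match 118 to 110 bases before the start and an E-box 60 to 55 bases before it. The inner window has 3 STAT-type matches, at 168 to 160, 122 to 114 and 88 to 80 bases before the start. Of 32851 promoter windows of this length, 7.02% held a STAT-type match and 6.02% the E-box. These are letter matches only, and the counts do not separate the start sites, since both Bcl6 rows held nearly the same counts (totals of 7646 and 7577.5).

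Prdm1, the gene of BLIMP-1, a repressor that ends proliferation and opposes BCL6, was lower on anti-CD40L than in the libraries labelled KO. It lies on chromosome 10, 44437174 to 44528558, minus strand (NM_007548), and had few counts: 33, 30 and 21 in wild-type isotype replicates 1 to 3, 10.5, 10.5 and 11 on anti-CD40L, and 39.5, 41 and 65.5 in the libraries labelled KO. In CPM these were 2.96, 2.85 and 2.41, then 0.986, 1.116 and 2.102, and then 4.34, 3.00 and 4.20, so each group stood apart from the other 2 without overlap. The highest anti-CD40L value came from replicate 3, the shallow library. Against the libraries labelled KO the log2 fold change was -1.53 (SE 0.40; edgeR, BH-adjusted p = 0.0357). This call held in only 1 of the 9 fits that left out a library, that without anti-CD40L replicate 3 (-1.85; edgeR, BH-adjusted p = 0.00846), and adjusted p reached 0.138 without anti-CD40L replicate 1. Against wild-type isotype the log2 fold change was -1.05 (SE 0.41; edgeR, BH-adjusted p = 0.122), which was called only without anti-CD40L replicate 3 (-1.37, BH-adjusted p = 0.0358). Between the KO label and wild-type isotype the difference was 0.48 on the log2 scale (SE 0.36; edgeR, BH-adjusted p = 0.935).

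The window before the RefSeq start of Prdm1, chr10:44458749-44458998 (minus strand, GRCm38.p6), is shown for comparison with its antagonist. By GENCODE vM21 it lies within the gene but in none of its exons.
Prdm1: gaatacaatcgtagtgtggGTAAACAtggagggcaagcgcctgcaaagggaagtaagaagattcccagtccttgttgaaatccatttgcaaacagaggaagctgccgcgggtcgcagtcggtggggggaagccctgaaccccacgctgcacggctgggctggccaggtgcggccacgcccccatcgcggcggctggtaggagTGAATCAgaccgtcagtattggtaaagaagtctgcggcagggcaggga
It held a FOXO match 231 to 225 bases and an AP-1 match 48 to 42 bases before the start, which 3.17% and 6.75% of promoter windows hold, and no STAT-type match. Across the 10 windows of the 7 regulators in the promoter table, the STAT-type match occurred in 3, those of Bcl6 and 1 of Foxp3.

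Because BCL6 and BLIMP-1 repress each other, the log2 ratio of Bcl6 to Prdm1 counts (with 0.5 added to each) was taken within each library. It was 4.40, 5.20 and 5.14 in wild-type isotype, 5.34, 5.88 and 4.22 on anti-CD40L and 4.50, 5.01 and 4.52 with the KO label. All groups overlapped, and the mean difference between anti-CD40L and isotype was 0.24 (two-sided exact permutation test, p = 0.7, where 3 against 3 libraries can reach no less than 0.1). That sign turned without anti-CD40L replicate 2 or isotype replicate 1. The other 2 differences were -0.24 and 0.47 (two-sided exact permutation tests, p = 0.4 for each), so no shift of this ratio was detectable among 3 libraries a group. The overlap of anti-CD40L with the other groups came from its replicate 3, the shallow library, at 4.22. Its other values, 5.34 and 5.88, lay above all values of the other groups. Without replicate 3, anti-CD40L differed from isotype by 0.70 and from the libraries labelled KO by 0.94.

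Gata3 and Tbx21, the Th2 and Th1 regulators, showed no called change. Gata3 (NM_008091, chromosome 2, 9857078 to 9887953, minus strand) stood at 19.8, 15.4 and 13.4 CPM in wild-type isotype replicates 1 to 3, at 12.5, 14.1 and 5.73 CPM on anti-CD40L and at 17.3, 16.7 and 20.4 CPM with the KO label. The lowest value, 5.73 CPM, came from anti-CD40L replicate 3. The log2 fold change was -0.55 against wild-type isotype and -0.71 against the libraries labelled KO (SE 0.26 each; edgeR, BH-adjusted p = 0.198 and 0.121), and edgeR without the filter on low counts called the second (BH-adjusted p = 0.0151, within a range of 0.0151 to 0.241). Without anti-CD40L replicate 3 these log2 fold changes were -0.29 and -0.45 (edgeR, BH-adjusted p = 0.35 and 0.184). Tbx21 (NM_019507, chromosome 11, 97098007 to 97115331, minus strand) had 9, 1.5 and 6 counts in wild-type isotype, 3, 7 and 0 on anti-CD40L and 15.5, 5.5 and 7 with the KO label. Its ratio of anti-CD40L to isotype was 0.681 (95% interval 0.279 to 1.58, covering counting error only; two-sided exact permutation test over libraries, p = 0.5), so a difference was not detectable at this depth. The same ratio against the libraries labelled KO was 0.507 (0.22 to 1.07; two-sided exact permutation test, p = 0.4), and that of KO-labelled to wild-type isotype libraries was 1.34 (0.714 to 2.61; two-sided exact permutation test, p = 0.7). The log2 ratio of Gata3 to Tbx21 averaged 5.02 ± 1.16 in wild-type isotype, 5.15 ± 0.87 on anti-CD40L and 4.66 ± 1.17 with the KO label (two-sided exact permutation test, p = 0.9, 0.8 and 0.6 for the 3 comparisons). In anti-CD40L replicate 3, with 0 Tbx21 counts, the ratio of 5.93 rests on the 0.5 added to each count. The difference of 0.13 between anti-CD40L and isotype became -0.26 without that library and -0.12 with 1 added to each count.

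The cytokines that mark these fates had few counts. Ifng, the Th1 cytokine, had 4.5, 0 and 4 counts in wild-type isotype, 2, 6 and 9.5 on anti-CD40L and 3, 1 and 1 with the KO label. Il4, the Th2 cytokine, had 2 counts in wild-type isotype, 0 on anti-CD40L and 2 among KO-labelled libraries, and Il17a, the Th17 cytokine, had 0 in all 9 libraries. Il21, the follicular helper cytokine, had 0, 4 and 3 counts in these groups, and Il10, an inhibitory cytokine, had 0, 5.5 and 0. These depths cannot show a difference in cytokine output.

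Rora, Maf and Ahr were lower on average on anti-CD40L, but none was called. Rora (NM_001289916, chromosome 9, 68653404 to 69388246, plus strand), a Th17 regulator, stood at 10.5, 6.56 and 7.34 CPM in wild-type isotype, at 5.65, 5.38 and 3.06 CPM on anti-CD40L and at 7.80, 9.52 and 8.91 CPM with the KO label. All anti-CD40L values lay below all others. The log2 fold change was -0.75 against wild-type isotype (SE 0.27; edgeR, BH-adjusted p = 0.101) and -0.86 against the libraries labelled KO (SE 0.27; edgeR, BH-adjusted p = 0.0768). DESeq2, edgeR without the filter and limma-voom with quality weights called the latter (BH-adjusted p = 0.0395, 0.0445 and 0.0484, within a range of 0.0395 to 0.264). Without anti-CD40L replicate 3 the log2 fold changes were -0.56 and -0.66 (edgeR, BH-adjusted p = 0.163 and 0.126).

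Maf (NM_001025577, chromosome 8, 115703253 to 115706894, minus strand) had the widest spread relative to its mean among the tested regulators in both wild-type groups. It measured 7.80, 21.9 and 15.4 CPM in wild-type isotype, at 4.30, 12.9 and 8.98 CPM on anti-CD40L and at 10.2, 11.7 and 17.4 CPM with the KO label, and all groups overlapped. The log2 fold change on anti-CD40L was -0.79 (SE 0.40; edgeR, BH-adjusted p = 0.23), and only edgeR without the filter called it (BH-adjusted p = 0.00906, within a range of 0.00906 to 0.629). Macrophages also express Maf: the summed level of 13 monocyte, macrophage and neutrophil markers was 7.71 to 8.46 CPM in wild-type isotype, 2.96 to 6.31 CPM on anti-CD40L and 5.27 to 17.9 CPM in the libraries labelled KO, with S100a8, S100a9, Ly6g and C1qa at 0 in both wild-type groups, Mpo at 0 in wild-type isotype and Cd14 at 0 on anti-CD40L. Their part in the Maf values was not tested. Ahr (NM_013464, chromosome 12, 35497979 to 35534989, minus strand), a ligand-activated receptor of environmental compounds and tryptophan products, measured 2.24, 2.47 and 3.44 CPM in wild-type isotype, 1.88, 1.52 and 2.102 CPM on anti-CD40L and 1.95, 1.68 and 3.44 CPM with the KO label. Its raw counts were low, at 24.5, 25.5 and 29.5, then 20.5, 15 and 11, and then 18, 23 and 54 in the same order. The highest anti-CD40L value, 2.102 CPM, came from replicate 3, the shallow library. Anti-CD40L values lay below those of wild-type isotype but not of the libraries labelled KO (log2 fold change -0.57, SE 0.43, against wild-type isotype; edgeR, BH-adjusted p = 0.419).

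Foxp3, the regulator that defines regulatory T cells, was detected in all 9 libraries at similar levels. It lies on chromosome X, 7579676 to 7595243, plus strand (NM_054039), and measured 18.5, 19.6 and 16.2 CPM in wild-type isotype, 15.9, 18.4 and 19.3 CPM on anti-CD40L and 15.6, 15.7 and 17.4 CPM with the KO label. The groups overlapped, with a log2 fold change of -0.03 on anti-CD40L (SE 0.15; edgeR, BH-adjusted p = 0.932) and -0.15 under the KO label (SE 0.15; edgeR, BH-adjusted p = 0.938). Ikzf2, which encodes Helios of regulatory T cells, was at 3.48 ± 0.200 CPM in wild-type isotype and 4.53 ± 1.96 CPM on anti-CD40L (edgeR, BH-adjusted p = 0.533).

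Runx3 was not called, while its relative Runx1 fell on anti-CD40L. RUNX factors bind DNA with their partner CBFβ (Cbfb), and RUNX3 works with T-bet in Th1 cells and in the CD8 lineage, whereas RUNX1 prevails in naive CD4+ T cells. Runx3 (NM_019732, chromosome 4, 135120645 to 135177990, plus strand) measured 29.3, 15.5 and 24.2 CPM in wild-type isotype, 24.9, 23.2 and 24.3 CPM on anti-CD40L and 31.4, 25.7 and 23.9 CPM with the KO label (log2 fold change 0.07, SE 0.20, on anti-CD40L against wild-type isotype; edgeR, BH-adjusted p = 0.864). Its spread in wild-type isotype came mainly from replicate 2. Runx1 measured 95.2, 122.8 and 115 CPM in wild-type isotype, 61.4, 87.9 and 73.2 CPM on anti-CD40L and 126, 118 and 133 CPM with the KO label, so all anti-CD40L values were below all others. Its log2 fold change was -0.58 against wild-type isotype and -0.76 against the libraries labelled KO (SE 0.13 each; edgeR, BH-adjusted p = 0.0148 and 0.00305). The first call was lost without isotype replicate 2 or 3 or anti-CD40L replicate 1 (edgeR, BH-adjusted p = 0.0694, 0.0545 and 0.0552, within a range of 6.45e-06 to 0.0694), and the second held in all 17 alternatives. Runx2 and Cbfb were not called on anti-CD40L (log2 fold change -0.45, SE 0.30, and 0.19, SE 0.11; edgeR, BH-adjusted p = 0.364 and 0.306). Runx2, too, was lower in all anti-CD40L libraries than in any other. It stood at 3.56 ± 0.408 CPM in wild-type isotype, 2.60 ± 0.106 on anti-CD40L and 5.12 ± 0.863 with the KO label. Against the libraries labelled KO its log2 fold change was -0.97 (SE 0.29; edgeR, BH-adjusted p = 0.0633), called in 2 of 17 alternatives. Whether Runx1 and Runx3 differ in their response was not tested.

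**Figure D2:**
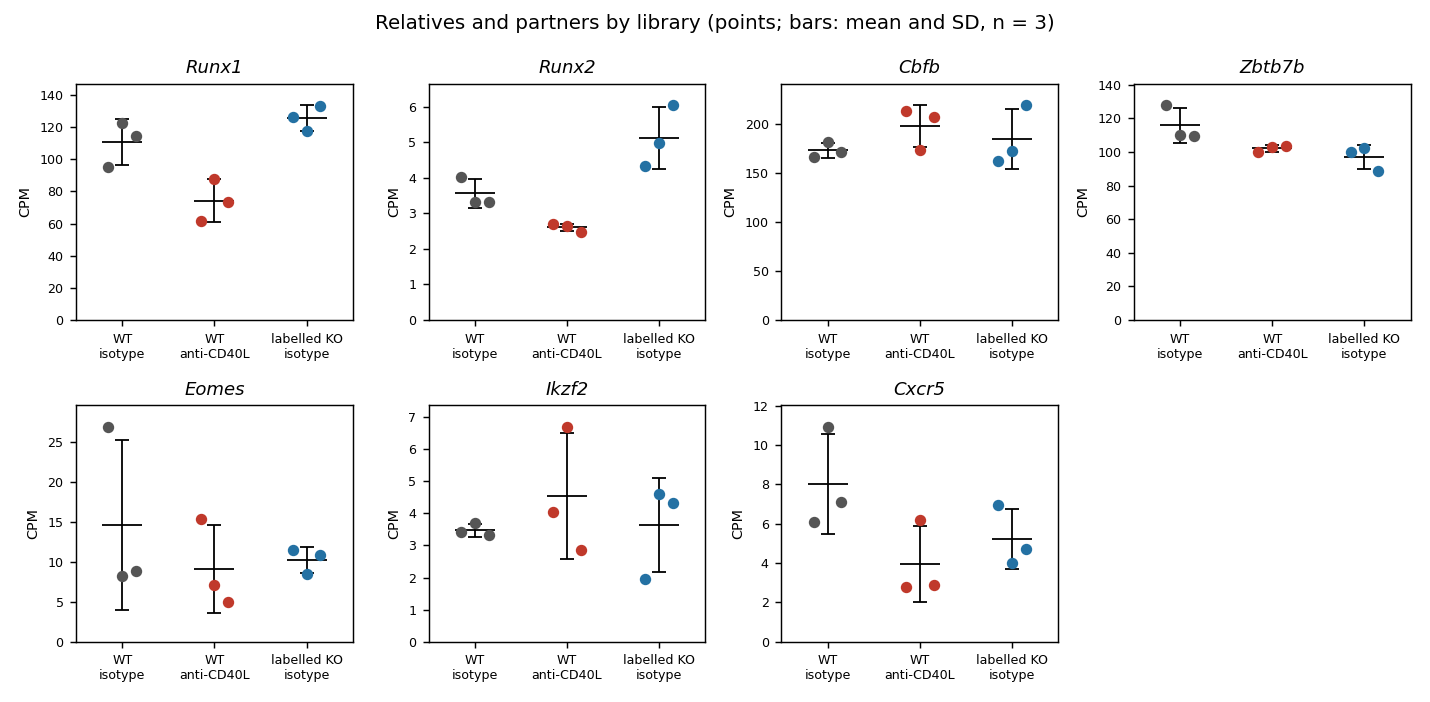
Level in CPM (linear axes from 0) of 7 genes related to the regulators by family, complex or fate, in the 9 libraries, with mean and SD (n = 3 per group). Runx1 and Runx2 are lower in all anti-CD40L libraries than in any other, at 61.4 to 87.9 and 2.48 to 2.69 CPM. Zbtb7b is higher in all wild-type isotype libraries than in any other. Cbfb, Eomes and Ikzf2 overlap. These 7 genes were named after their values were seen.

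Eomes, the T-box relative of T-bet, was at 26.9 CPM in wild-type isotype replicate 1 and at 4.97 to 15.3 CPM in the other 8 libraries, with no call on anti-CD40L (log2 fold change -0.64, SE 0.45; edgeR, BH-adjusted p = 0.391). Zbtb7b, which encodes ThPOK, the CD4 lineage regulator that opposes RUNX3, was at 116 ± 10.4 CPM in wild-type isotype and 102 ± 2.09 CPM on anti-CD40L (edgeR, BH-adjusted p = 0.217). With the KO label it stood at 96.9 ± 7.01 CPM (log2 fold change -0.26, SE 0.09, against wild-type isotype by edgeR, BH-adjusted p = 0.715). Both groups lay below wild-type isotype without overlap, were not called and overlapped each other. Cxcr5, the follicle-homing receptor of follicular helper cells, went from 8.04 ± 2.55 to 3.94 ± 1.94 CPM, with overlapping values (log2 fold change -1.0, SE 0.36; edgeR, BH-adjusted p = 0.101). It was called in 2 of 17 alternatives, without the filter and without anti-CD40L replicate 2 (edgeR, BH-adjusted p = 0.0213 and 0.0273, within a range of 0.0213 to 0.347). With the KO label Cxcr5 stood at 5.22 ± 1.52 CPM, overlapping both wild-type groups (log2 fold change -0.64, SE 0.35, against wild-type isotype by edgeR, BH-adjusted p = 0.885).

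As a group, 1 of the 8 tested regulators was called lower and 0 higher on anti-CD40L against wild-type isotype, where 6.46% of all tested genes were called lower and 2.91% higher (9.37% in all). A count of 1 in 8 is too small to set against this share. An unadjusted p under 0.05 was found for 3 of the 8, beside 26.4% of tested genes. The log2 fold change was below 0 in 7 of the 8 with a median of -0.66, against 51.8% and -0.01 over all tested genes. Groups did not overlap, with anti-CD40L lower, for 3 of the 8 (Rora, Ahr and Prdm1), where 17.2% of tested genes did so, and for 0 with anti-CD40L higher, beside 15.4%. Against the libraries labelled KO, 2 of 8 were called lower and 0 higher, beside 5.04% and 1.79% of tested genes (6.83% in all), and 4 of 8 had an unadjusted p under 0.05, beside 22.2%. Bcl6, Prdm1, Gata3 and Rora, 4 of 8, were lower without overlap, beside 15.9%, and 0 were higher, beside 10.3%. These comparisons share the anti-CD40L libraries, and the difference between wild-type anti-CD40L and KO-labelled isotype libraries combines the antibody with the genotype.

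**Figure D3:**
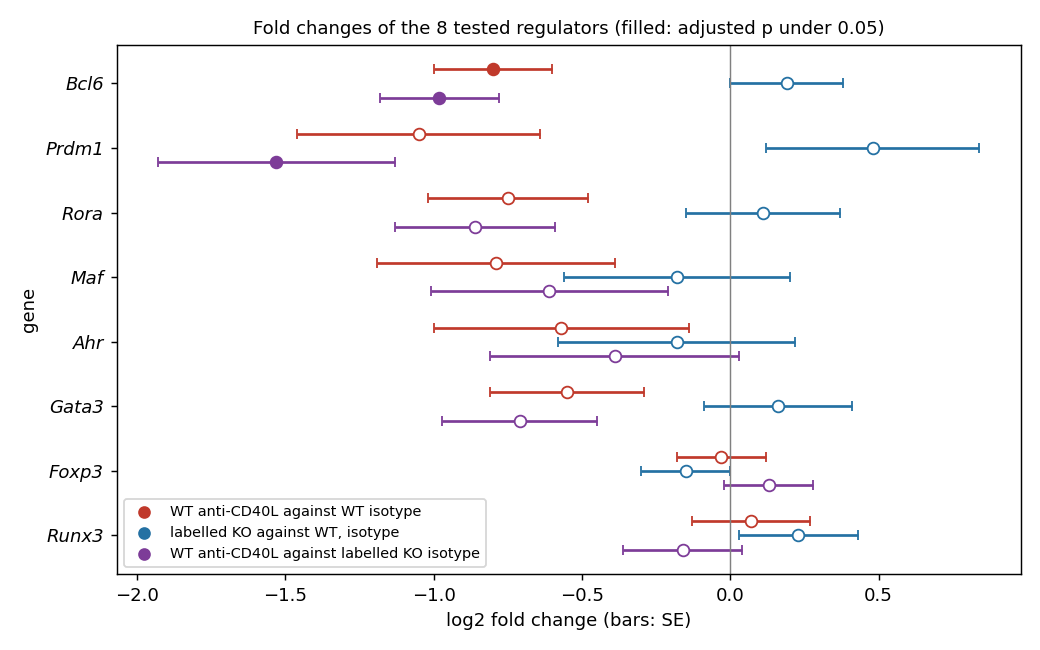
Log2 fold change (horizontal axis) with SE bars for the 8 tested regulators in the 3 comparisons, where filled points have a BH-adjusted p under 0.05. Bcl6 at -0.80 and -0.98 and Prdm1 at -1.53 are filled, and Foxp3 lies between -0.15 and 0.13 in all 3 comparisons.

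Between libraries labelled KO and wild type on isotype antibody, 0 of the 8 regulators and 0 of all tested genes (0.0%) were called by edgeR. At an unadjusted p under 0.05 there were 0 regulators, against 5.77% of tested genes. DESeq2 called 44 genes and limma-voom with quality weights 38, none of them among the regulators. For Prdm1, however, DESeq2 gave no adjusted p here. Log2 fold changes of the regulators lay between -0.18 for Maf and Ahr and 0.48 for Prdm1, the only regulator whose groups did not overlap (7.61% of tested genes were higher and 7.62% lower without overlap).

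Lists of genes from the programs of these regulators held called genes on anti-CD40L, and their counts stand beside 6.46% of all tested genes called lower and 2.91% called higher. The counts are small and were not tested against these shares. The lists also hold cytokine receptor chains, so a call in a list does not show a change of that fate. Of 13 tested Th1 genes 4 fell and 0 rose: among them Ifngr1 and Ifngr2, the interferon gamma receptor chains, went from 119 ± 21.1 to 30.3 ± 5.90 CPM and from 35.4 ± 4.82 to 19.9 ± 2.98 CPM, and Il18r1, an IL-18 receptor chain, from 12.4 ± 1.76 to 2.12 ± 1.66 CPM (edgeR, BH-adjusted p = 6.97e-05, 0.00816 and 0.000988). Of 9 tested Th2 genes 2 fell: Ecm1, a secreted matrix protein of Th2 cells, from 38.4 ± 5.20 to 17.3 ± 4.82 CPM, and Il4ra, the IL-4 receptor chain, from 184 ± 4.28 to 147 ± 3.54 CPM (edgeR, BH-adjusted p = 0.00206 and 0.0179). Of 10 tested Th17 genes 2 rose and 2 fell. Irf4, which acts downstream of the antigen receptor, rose from 1498 ± 168 to 2353 ± 48.5 CPM and Hif1a, the hypoxia-inducible factor, from 441 ± 37.7 to 586 ± 38.6 CPM, while Il6ra, the IL-6 receptor chain, fell from 113 ± 7.89 to 63.0 ± 10.2 CPM and Tgfbr2, a TGF-beta receptor chain, from 278 ± 4.83 to 198 ± 20.1 CPM (edgeR, BH-adjusted p = 0.0011, 0.0145, 0.000781 and 0.00442). The median log2 fold change of the tested genes was -0.34 for the Th1 list, -0.02 for Th2 and -0.09 for Th17, against -0.01 for all genes. The Il4ra call was lost without isotype replicate 1 or 3 or anti-CD40L replicate 1, and the Hif1a call without isotype replicate 1 or 2 or anti-CD40L replicate 1 (edgeR, BH-adjusted p up to 0.0878 and 0.0647). The Th2 count was then 1 in each such case.

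Of 15 tested regulatory T cell genes 3 rose and 0 fell, while Foxp3 itself was not called. Tnfrsf4, the costimulatory receptor OX40, rose from 113 ± 5.69 to 154 ± 12.6 CPM, Il2ra, which encodes the alpha chain of the receptor for IL-2, from 629 ± 44.4 to 838 ± 28.7 CPM and Tnfrsf18, the receptor GITR, from 68.0 ± 2.94 to 85.8 ± 6.32 CPM (edgeR, BH-adjusted p = 0.00529, 0.00702 and 0.0459). All 3 are also induced in activated conventional T cells. The Tnfrsf18 call was lost on leaving out any library of these groups except anti-CD40L replicate 2, and without KO replicate 2 (edgeR, BH-adjusted p up to 0.154), while DESeq2 and limma-voom with quality weights each called 5 genes of the list and edgeR without the filter 6. The list's median log2 fold change was -0.25, opposite in sign to its calls.

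Of 15 tested follicular helper genes, the program of BCL6, 4 fell and 2 rose, with a median log2 fold change of -0.33. Il6ra is counted here too. Sh2d1a, the adaptor SAP that follicular helper cells need for contact with B cells, fell from 11.3 ± 1.43 to 5.06 ± 0.521 CPM, and Tcf7, the gene of TCF-1, an activator of Bcl6, from 1238 ± 52.5 to 962 ± 66.0 CPM (edgeR, BH-adjusted p = 0.00599 and 0.0144). With the KO label Tcf7 stood at 1031 ± 62.8 CPM, also below wild-type isotype without overlap (log2 fold change -0.26, SE 0.08; edgeR, BH-adjusted p = 0.632). Its anti-CD40L and KO-labelled values overlapped (-0.10, SE 0.08; edgeR, BH-adjusted p = 0.506). Cd200, a surface ligand, rose from 89.2 ± 7.06 to 149 ± 21.4 CPM and Btla, an inhibitory receptor, from 172 ± 6.73 to 240 ± 10.9 CPM (edgeR, BH-adjusted p = 0.00315 and 0.0214). The Tcf7 call was lost without isotype replicate 1 or anti-CD40L replicate 1 and the Btla call without any isotype library or anti-CD40L replicate 3 (edgeR, BH-adjusted p up to 0.079 and 0.0728). Leaving out a library gave 3 to 8 calls in this list, and the 3 came without isotype replicate 1.

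**Figure D4:**
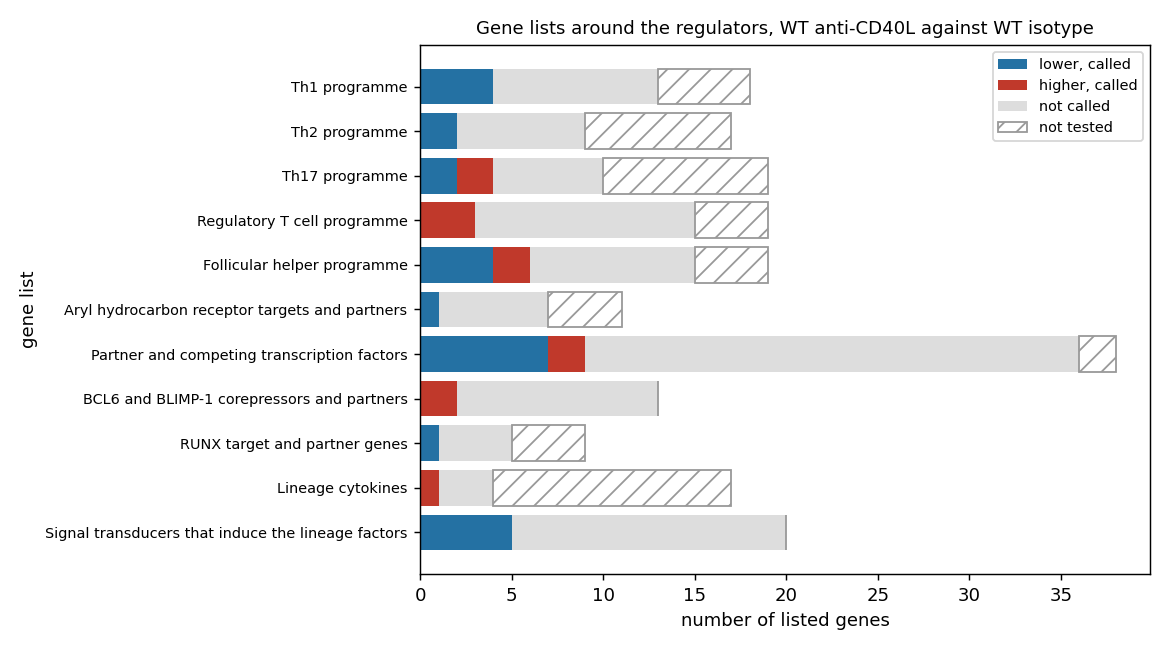
Number of listed genes (horizontal axis) per list that were called lower, called higher, not called or not tested on anti-CD40L against wild-type isotype. Signal transducers show 5 lower and 0 higher, partner and competing factors 7 lower and 2 higher, and regulatory T cell genes 0 lower and 3 higher.

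Among 36 tested partner and competing transcription factors, 7 fell and 2 rose (median log2 fold change -0.13). The 9 calls became 5 without isotype replicate 1 or anti-CD40L replicate 1. Bhlhe40, a cytokine regulator, rose from 57.9 ± 10.9 to 127 ± 16.6 CPM along with Irf4. Klf2, a quiescence and homing factor, fell from 194 ± 38.3 to 62.7 ± 8.59 CPM, and Ets1, a partner of RUNX1, from 1016 ± 110 to 738 ± 11.6 CPM (edgeR, BH-adjusted p = 0.000322 for Bhlhe40, 6.97e-05 for Klf2 and 0.00654 for Ets1). Of 20 signal transducers that induce the lineage factors 5 fell and 0 rose. Smad7, the feedback inhibitor of TGF-beta signalling, fell from 87.0 ± 7.59 to 41.9 ± 7.38 CPM, Stat5b, a transducer of IL-2 that opposes Bcl6, from 178 ± 17.4 to 120 ± 8.91 CPM and Jak1, a kinase of cytokine receptors, from 801 ± 21.7 to 617 ± 31.6 CPM (edgeR, BH-adjusted p = 0.00034, 0.00286 and 0.0124). The Jak1 call was lost without isotype replicate 1 or 3 (edgeR, BH-adjusted p up to 0.063). The list's 5 calls became 3 without isotype replicate 1 or 2 or anti-CD40L replicate 1, 2 without isotype replicate 3, and 8 by DESeq2, by limma-voom with quality weights or without the filter.

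The remaining lists held few calls. Of 13 genes for corepressors and partners of BCL6 and BLIMP-1 2 rose, the histone methyltransferase Ezh2 and the deacetylase Hdac2 (log2 fold change 0.61, SE 0.14, and 0.32, SE 0.08; edgeR, BH-adjusted p = 0.018 and 0.0214). Both calls were lost without isotype replicate 1 or 2 or anti-CD40L replicate 1, and that of Hdac2 also without isotype replicate 3 (edgeR, BH-adjusted p up to 0.0859 and 0.0735). Of 7 tested aryl hydrocarbon receptor targets and partners 1 fell, Lpar6, a lysophosphatidic acid receptor, by 1.03 on the log2 scale (SE 0.22; edgeR, BH-adjusted p = 0.0107, and 0.053 without isotype replicate 3), and its targets Cyp1a1, Cyp1b1 and Ahrr had too few counts to test. Of 5 tested RUNX target and partner genes 1 fell, Il7r, the IL-7 receptor chain, from 196 ± 49.9 to 10.4 ± 3.09 CPM, and of 4 tested lineage cytokines 1 rose, Il2, the T cell growth factor, from 4.99 ± 1.17 to 19.5 ± 11.1 CPM (edgeR, BH-adjusted p = 4.21e-07 and 0.00398). Median log2 fold changes of these 4 lists were -0.06, -0.13, -0.18 and -0.11, against -0.01 for all genes.

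The same lists were counted for wild-type anti-CD40L against the libraries labelled KO, where 5.04% of all tested genes were called lower and 1.79% higher. There, 0 rose and 3 fell of the Th1 genes, 0 and 3 of the Th2 genes, 2 and 1 of the Th17 genes, 3 and 1 of the regulatory T cell genes and 1 and 2 of the follicular helper genes. Of the partner and competing factors 2 rose and 4 fell, and of the signal transducers 0 rose and 3 fell. The 3 Th2 calls became 0 without anti-CD40L replicate 1 or KO replicate 2 and 1 without KO replicate 1, and the 4 regulatory T cell calls became 2 without KO replicate 2. In libraries labelled KO against wild type, 0 genes of these lists were called in the main fit. Partner and competing factors held calls in 3 of 17 alternatives and regulatory T cell genes in 2 of 17. Among genes of these lists named above as called on anti-CD40L, Ecm1, Il6ra, Tgfbr2, Tcf7, Klf2, Ets1 and Smad7 were lower under the KO label without overlap. Hdac2 and Il2 were higher without overlap, where 7.62% of tested genes were lower and 7.61% higher. None of these genes was called under the KO label. They were picked for differing from the same wild-type isotype libraries, which favours a difference in the same direction here. Hence they cannot be set against those shares, and a shared effect was not tested.

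To list genes with a profile like that of a regulator, 10345 other tested genes with a mean of at least 1 CPM, those with predicted names left out, were ranked by the root mean square difference of their mean-centred log2 CPM over the 9 libraries. This is a description of these libraries, which share the split between anti-CD40L and the rest and the shallow replicate 3. The genes nearest to Bcl6 were Egr1, an immediate early transcription factor, at 0.13, Spry4, an inhibitor of growth factor signalling, at 0.14 and Bdh2, a dehydrogenase gene, at 0.16, against a median of 0.55 over all genes. Egr1 fell on anti-CD40L (log2 fold change -0.64; edgeR, BH-adjusted p = 0.0168), whereas Spry4 and Bdh2 were not called (-0.86 and -0.53; edgeR, BH-adjusted p = 0.167 and 0.0968). Nearest to Rora were Heatr5a at 0.11, Dip2a at 0.11 and Tgfbr3, a TGF-beta coreceptor, at 0.13, against a median of 0.50, and of these Heatr5a fell (edgeR, BH-adjusted p = 0.0236). Nearest to Prdm1 were Syne2 at 0.21, F2r, a thrombin receptor, at 0.21 and Fez2 at 0.23, against a median of 0.60, and of these Syne2 and F2r fell (edgeR, BH-adjusted p = 0.0176 and 0.00796).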

How the data were processed

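Bulk RNA libraries of mouse CD4+ T cells were compared in 3 groups of 3, assigned from the sample titles. The authors deposited expected counts per RefSeq transcript in steps of 0.5, not normalized. The submitters' processing notes name mm10, CASAVA 1.8.2 and HISAT2 2.1.0. How reads were counted, and whether strand was used, were not given in the sources used here. Genes with near-identical copies or antisense partners are therefore uncertain. Of 42361 rows, 42203 were named from RefSeq GRCm38.p6 and 65 from GENCODE vM21. The row of highest total was kept per gene, with fractions of 0.5 rounded up. CPM used TMM-scaled library sizes, and transcript lengths came from GENCODE vM21. For Bcl6 the length was that of its other row.

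Tests were edgeR 4.0.16 quasi-likelihood F tests (R 4.3.3, robust, filterByExpr, 1 term per group, all 9 libraries), with Benjamini-Hochberg adjustment over all tested genes within each comparison at 0.05. The alternatives were DESeq2 1.42.0, its size factors in edgeR, limma 3.58.1 voom with quality weights, no filter, only the groups compared, the mean over transcript rows, rounding down, the replicate number as a block and leaving out each library. Ratios used exact permutation tests over libraries.

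The members and lists were chosen with earlier results of these data known. Genes named were the 9 regulators, up to 3 called genes per direction and list (or the gene of smallest p), 5 cytokines, and the 3 nearest profiles (mean of at least 1 CPM) of the 3 regulators of smallest p. Exceptions are identified where they occur, and 2 other genes of the lists are not reported here. Counts limit precision, and intervals cover counting error only.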

Additional observations from a re-analysis of the deposited data

How the results depend on the processing

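On anti-CD40L against wild-type isotype, 1055 genes were called, 486 to 1342 when a library was left out, 1698 without the filter and 1635 by DESeq2. The regulators called were 1, or 0 to 1 when a library was left out, 2 without the filter and 0 by limma-voom with quality weights. Without anti-CD40L replicate 3 the call passed from Bcl6 to Prdm1. In libraries labelled KO against wild type 0 genes were called, 0 to 2 when a library was left out, 102 without the filter, 44 by DESeq2, 38 by limma-voom with quality weights and 3 with only these groups, and no alternative called a regulator. There, Prdm1 and Ahr each had an adjusted p in 16 of 17 alternatives, and DESeq2 gave none for Prdm1. For wild-type anti-CD40L against the libraries labelled KO the 769 calls became 346 to 1022 when a library was left out, 1305 without the filter, 1219 by DESeq2, 1458 by limma-voom with quality weights and 481 with only these groups. The regulators called there were 2, or 1 in each fit that left out a library, 4 without the filter and 1 with only these groups.

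The same replicate numbers appear in each group, but same-numbered libraries did not all deviate together over the 3 groups (correlations of -0.149 to 0.18). Within the wild-type groups the same-numbered pairs had correlations of 0.18, 0.0843 and 0.0783, each above those of the unmatched pairs (-0.106 to 0.0129), which is a hint from the data and not from the design. Outside them, however, an unmatched pair, anti-CD40L replicate 1 with KO replicate 3, reached 0.178. With a replicate block the last comparison called 1 regulator rather than 2, Prdm1 reaching an edgeR BH-adjusted p of 0.0673, and the block changed no other call of a regulator. Of the other genes named on anti-CD40L against wild-type isotype, it ended the call of Tnfrsf18 (edgeR, BH-adjusted p = 0.0682).

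When a library was left out, the log2 fold changes of these uncalled genes turned sign in at least 1 fit. On anti-CD40L, Foxp3 ranged from -0.10 to 0.06, Runx3 from -0.15 to 0.29 and Eomes from -1.26 to 0.16. In libraries labelled KO, Rora ranged from -0.03 to 0.33, Maf from -0.50 to 0.20 and Ahr from -0.58 to 0.01, and in the last comparison Ahr ranged from -0.57 to 0.01. The log2 ratio of Bcl6 to Prdm1 ranged from -0.13 to 0.70 on anti-CD40L, with reversed values of -0.13 and -0.02. Its highest value, 0.70, came without anti-CD40L replicate 3. That of Gata3 to Tbx21 ranged from -0.29 to 0.80 (reversed values -0.29 to -0.11, and -0.12 with 1 added to each count), from -0.78 to 0.31 and from -0.18 to 0.96 in the 3 comparisons. The cause of these shifts was not tested. Depth limits what can be said of Tbx21, with 0 to 15.5 counts per library, and of the cytokines. The ratio of Tbx21 on anti-CD40L ranged from 0.327 to 0.916 when a library was left out.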
